A study of Mus musculus with 6 samples.

Results

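The enzymes described here burn fuel in the mitochondria of the heart. They are 43 genes of 4 pathways: 14 of fatty acid beta-oxidation, 15 of pyruvate oxidation and the tricarboxylic acid (TCA) cycle, 11 of branched-chain amino acid breakdown and 3 of ketone body use. The members were picked by gene symbol, not by their measured values, from 50385 genes in the count table. Earlier results of these data were known when they were chosen. All 43 were found, and all 43 passed the filter on low counts that left 20472 genes for testing.

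RNA was sequenced from hearts of male mice of the genotype Mdx Utrn dKO, which carry mutations in both dystrophin and its relative utrophin and serve as a model of Duchenne cardiomyopathy. Treatment began at 2 to 3 months of age and was given daily by gavage for 12 weeks: corn oil (vehicle) for 3 libraries and, for the other 3, setanaxib at 60 mg/kg/day, an inhibitor of NADPH oxidases directed at Nox4. The question was what Nox4 does in this cardiomyopathy. Both groups carry the same mutations and no wild-type heart was analysed here, so the comparison is of drug against vehicle within diseased hearts.

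The adult heart takes most of its energy from fatty acids, with glucose, lactate, ketone bodies and branched-chain amino acids as further fuels. Long-chain fatty acids enter mitochondria on carnitine and are shortened stepwise to acetyl-CoA, pyruvate becomes acetyl-CoA through the pyruvate dehydrogenase complex, and the TCA cycle oxidises acetyl-CoA to carbon dioxide. Ketone bodies made in the liver are turned back into acetyl-CoA in the heart, starting with beta-hydroxybutyrate dehydrogenase, the product of Bdh1. Failing hearts are known for shifts between these fuels.

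Libraries held 110803307 to 154003318 estimated counts, so counting error is small for every member and the spread between libraries limits the comparisons. The labels do not state in words that each library is a separate animal; p-values reflect only how much these libraries vary. Levels are given as CPM, a count relative to the size of its library, here normalised by TMM, the trimmed mean of M values. The labelled tissue was checked against 12 cardiomyocyte markers, all of which were detected; they summed to 58017 to 61231 CPM on vehicle and 46044 to 66264 CPM on setanaxib, 7 lower and 5 higher in fold change. None of the 5 skeletal muscle markers passed the filter, and 3 of them were at 0 in every library.

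Setanaxib replicate 3 stood apart and touches nearly every result below. It had the lowest cardiomyocyte marker sum, 46044 CPM, and the smallest share of counts from the mitochondrial genome, 20.5% against 23.5% to 30.0% in the other libraries. The 3 atrial markers in the table (Myl7, Myl4 and Nppa, of 5 listed) summed to 2914 CPM in it, against 121 to 568 CPM on vehicle and 66.5 and 108 CPM in setanaxib replicates 1 and 2. Nppa made up most of the sums elsewhere: Myl7 was at 0.103 to 23.3 CPM and Myl4 at 0.726 to 23.9 CPM there. In setanaxib replicate 3 they were at 637 and 609 CPM. How much atrium each library held was not tested. The only lung epithelial marker of 3 that was tested, Scgb1a1, was at 598 CPM in it and at most at 19.6 CPM elsewhere. Sftpb and Sftpc, which did not pass the filter, had 364 and 176 estimated counts in this library and 0 elsewhere. Some fat markers were high in it too: of 5 adipocyte markers, 2 were tested, Cidec at 50.2 CPM against at most 1.71 CPM elsewhere, and Fabp4, which was within the range of the others at 215 CPM. The rest did not pass the filter. Plin1 had 1148 estimated counts in this library against 0 to 9, Lep 144 against 0 and Adipoq 12 against 0. Of the 2 brown fat markers, Cidea was at 21.5 CPM in it against 8.69 to 10.1 CPM, and Ucp1, which did not pass the filter, at 1357 estimated counts against 0 to 28. Brown fat is itself rich in the enzymes described here. The part that atrial, lung or fat tissue plays in the values of this library was not tested. Log2 fold changes are therefore given with and without it below. All 7 macrophage markers were lower on setanaxib with no overlap between the groups, and summed to 297 to 383 CPM on vehicle and 186 to 234 CPM on setanaxib. The same held for 4 of 8 fibroblast markers, whose sum over all 8 was 1744 to 2455 and 1439 to 2688 CPM. Of 7 endothelial markers 6 were lower in fold change, 1 of them with no overlap. Of 6 smooth muscle and pericyte markers all 6 were lower, 2 of them with no overlap. Among all tested genes 9.46% were lower with no overlap. None of these markers passed edgeR's adjusted test. DESeq2, which called 2.41% of all genes, called the macrophage markers Lyz2, Adgre1, C1qa and Cd68 (adjusted p = 0.0037 to 0.037). It also called the fibroblast markers Col3a1 and Col1a2 (adjusted p = 0.012 and 0.020) and none of the others in these groups. The part of these markers in the members' values was not tested either. In bulk tissue, fewer cells of a type and less RNA per cell cannot be told apart.

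No member passed edgeR's quasi-likelihood test at an adjusted p under 0.05, a threshold that 0.00488% of all tested genes passed. DESeq2 called 2.41% of genes and limma-voom 0%, and neither called a member. At an unadjusted p under 0.05, which 8.46% of genes reached in edgeR, there were 0 members in edgeR and 1 in each of the other tools, Bdh1. With setanaxib, 28 members had a higher fitted level and 15 a lower one, where 51.6% of all genes were higher. The median log2 fold change, setanaxib minus vehicle, was 0.02 over the members and 0.01 over all tested genes.

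Fitted differences were small for most members: 42 of 43 had a log2 fold change within 0.3 of 0, and the 95% confidence intervals of 42 lay within 1 of 0. Bdh1 was the exception to both. Such intervals do not show that levels were unchanged, as that of Ech1 reached 0.73. The shares of all genes within these bounds were not counted. The 3 setanaxib libraries lay wholly apart from the 3 vehicle libraries for Mccc1, above, and for Bdh1, below. Among all tested genes, 8.11% were apart upward and 9.46% downward, so 2 of 43 members is no more than the background.

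**Figure D1:**
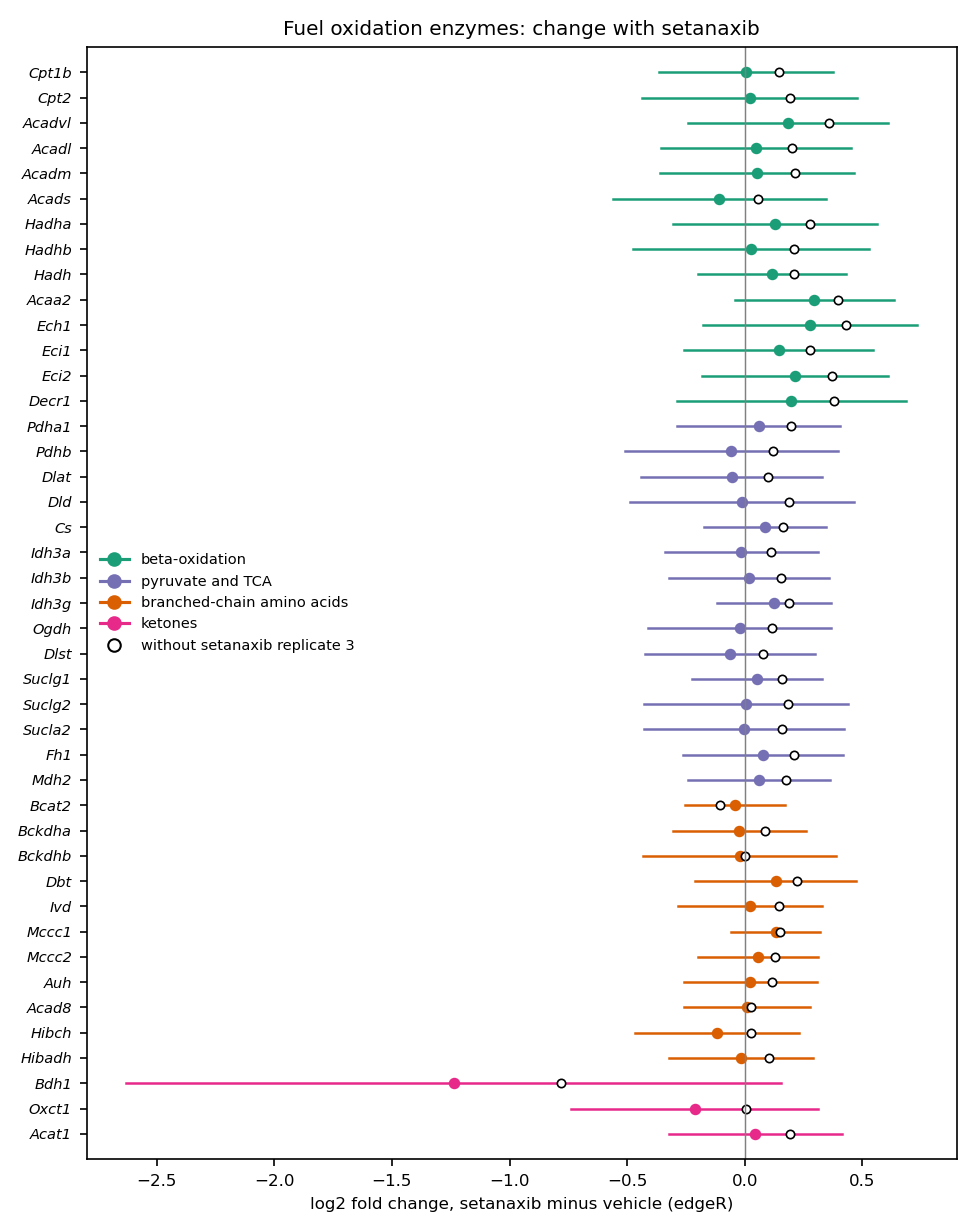
Log2 fold change (x axis, setanaxib minus vehicle) of each of the 43 genes, coloured by pathway. Filled points and lines are the edgeR estimate and its 95% confidence interval from all 6 libraries, and open points the estimate without setanaxib replicate 3. All intervals include 0, and Bdh1 alone lies far from the rest.

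Which libraries were high or low was shared across pathways. Setanaxib replicate 3 was the lowest of the 6 libraries for 33 of 43 members, and setanaxib replicate 1 or 2 was the highest for 18 and 17. For 22 members setanaxib replicates 1 and 2 were both above every vehicle library, while for 33 setanaxib replicate 3 was below every vehicle library. This layout depends on the scaling: the TMM factor was largest for setanaxib replicate 3, at 1.19, and smallest for replicate 1, at 0.892. With total counts and no scaling factors, Fh1, Eci2 and Suclg1, lowest in replicate 3 here, were above vehicle in every setanaxib library. The share of all genes that were lowest in replicate 3 was not counted. Without setanaxib replicate 3, 41 members were higher and 2 lower, Bdh1 and Bcat2, against 49.5% of genes higher. The median then moved to 0.16 over the members and to -0.00 over all genes.

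In that fit of 5 libraries 0 members passed the adjusted threshold, as did 0.00479% of genes, and the smallest adjusted p among the members was 0.117, for Bdh1. At an unadjusted p under 0.05 there were 11 of 43 members, beside 13.6% of all genes. Groups did not overlap for 22 higher members, beside 15.8% of genes, and for 2 lower ones, beside 18% of genes. Log2 fold changes of the members then ran from -0.78 to 0.43.

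**Figure D2:**
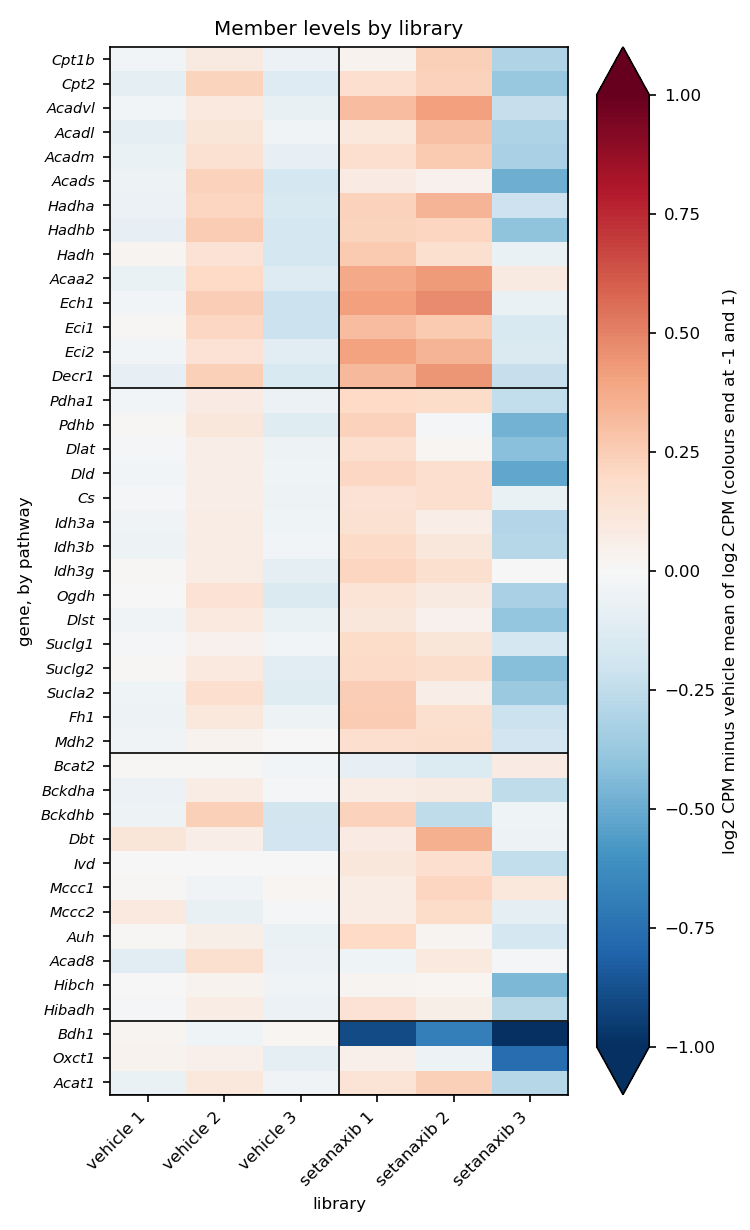
Level of each of the 43 genes in each library, as log2 CPM minus the vehicle mean of log2 CPM, with genes in rows by pathway and libraries in columns. Setanaxib replicates 1 and 2 are mostly red and setanaxib replicate 3 mostly blue, while Bdh1 is blue in all 3 and beyond the end of the scale in replicate 3.

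To set the members beside heart muscle markers of the same library, their CPM was divided by the summed CPM of the 12 cardiomyocyte markers. On this scale the members together came to 21.9%, 23.1% and 19.8% of the marker sum with vehicle, and to 23.2%, 22.1% and 23.3% with setanaxib. Setanaxib replicate 3, lowest on the CPM scale at 82.6% of the vehicle mean, was no longer low. The markers differed among themselves in that library, so their sum is not a plain measure of muscle content. Actc1, Myl3, Myl2 and Mb were at 44.4% to 55.3% of their vehicle means, Myh6, Atp2a2 and Ryr2 at 92.2% to 105%, and the rest between. On this scale 36 members were higher and 7 lower, and the groups did not overlap for 5 higher genes (Acadvl, Acaa2, Ech1, Eci2 and Mdh2) and 1 lower gene, Bdh1. The shares of all genes on this scale were not computed, so these counts have no background beside them. This scaling was chosen after seeing the data and carries no test.

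**Figure D3:**
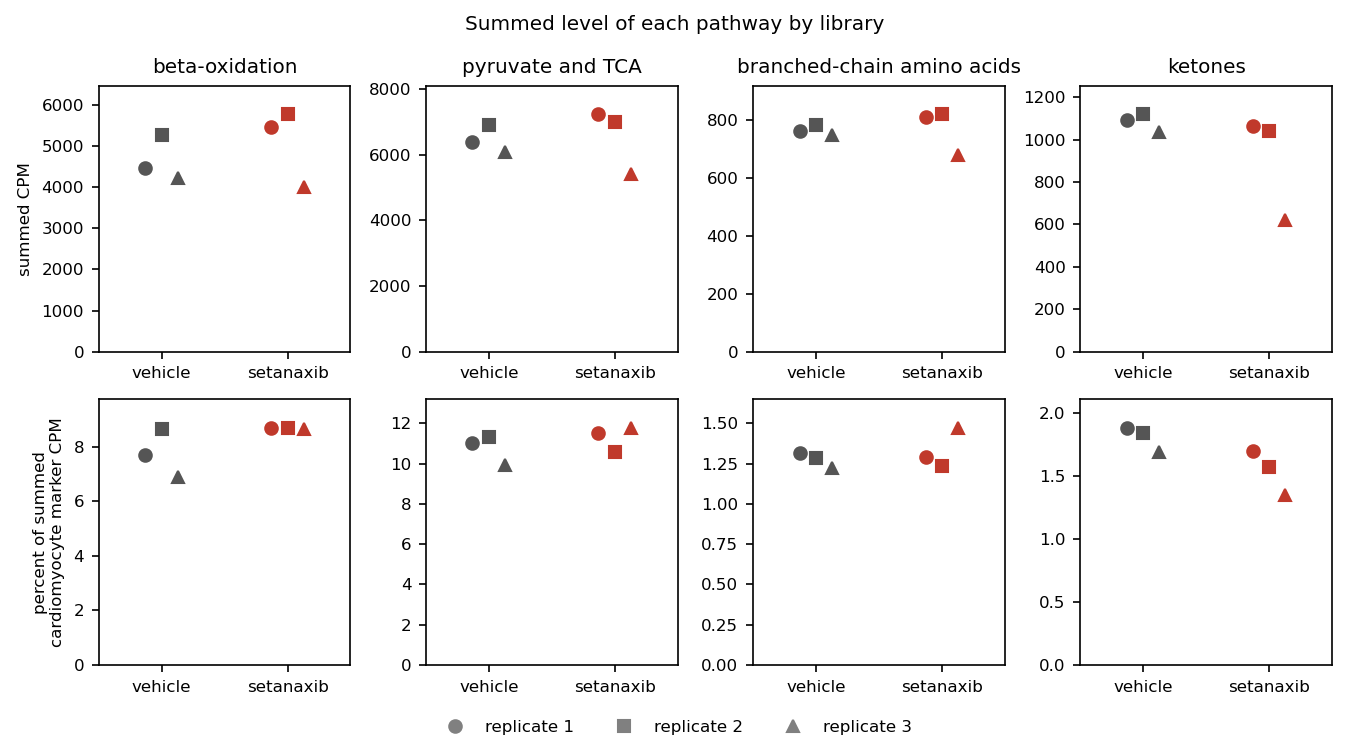
Summed level of each pathway's genes in each library, as CPM (upper row) and as a percentage of the summed CPM of 12 cardiomyocyte markers (lower row). Each symbol is 1 library. Setanaxib replicate 3 is lowest in all 4 upper panels, and in the lower row it is lowest for ketones only.

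The largest difference among the members was that of 1 gene of ketone body use, Bdh1. Bdh1, which oxidises beta-hydroxybutyrate to acetoacetate, was at 145, 138 and 144 CPM on vehicle and at 76.6, 88.5 and 15.7 CPM on setanaxib replicates 1, 2 and 3. All 3 setanaxib libraries lay below the vehicle libraries, which were close together, and replicate 3 held 11.1% of the vehicle mean. Its log2 fold change was -1.24 (SE 0.58, 95% interval -2.63 to 0.16, edgeR adjusted p = 0.638), so the difference did not pass the test. Adjusted p was 0.267 in DESeq2 and 0.493 in limma-voom, and no alternative took it under 0.117.

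Without setanaxib replicate 3 the Bdh1 difference was smaller and much less variable, at -0.78 (SE 0.08, interval -0.99 to -0.57, unadjusted p = 0.00017, edgeR adjusted p = 0.117). Divided by the cardiomyocyte markers, Bdh1 was 0.249%, 0.226% and 0.235% of the marker sum with vehicle and 0.122%, 0.134% and 0.0341% with setanaxib. The groups thus stayed apart when scaled to heart muscle markers, with a log2 ratio of means of -1.29, or -0.89 without setanaxib replicate 3. Exons of Bdh1 overlap those of Gm15743 on the opposite strand, whose count was 2.14% of that of Bdh1.

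RefSeq lists 2 start sites for Bdh1 among its promoter windows on GRCm38.p6. The 250 bases before each start are shown because Bdh1 is the 1 member that stands apart, on the + strand and 5′ to 3′, with CG dinucleotides in capitals.
Bdh1 chr16:31422047-31422296: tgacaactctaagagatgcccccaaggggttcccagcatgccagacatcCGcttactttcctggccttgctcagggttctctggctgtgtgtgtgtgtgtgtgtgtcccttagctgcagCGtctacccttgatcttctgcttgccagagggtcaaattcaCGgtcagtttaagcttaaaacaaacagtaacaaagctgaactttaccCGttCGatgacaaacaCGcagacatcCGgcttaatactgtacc
Bdh1 chr16:31428503-31428752: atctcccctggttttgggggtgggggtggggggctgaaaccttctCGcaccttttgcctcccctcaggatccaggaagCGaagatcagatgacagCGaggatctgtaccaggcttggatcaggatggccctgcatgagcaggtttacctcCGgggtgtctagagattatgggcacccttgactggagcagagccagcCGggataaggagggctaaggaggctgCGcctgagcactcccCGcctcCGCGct
The first holds 7 CG dinucleotides and the second 9. The full windows, which run on for 50 bases past the start, have a GC content of 48.3% and 63.7%. The median was 60.3% over the 45 windows of the 37 members listed and 52.7% over 32851 windows of all genes. Searched on both strands, the oestrogen-related receptor half-site TCAAGGTCA was in the windows of 0 of 37 members and of 0.466% of 27025 genes. A direct repeat of AGGTCA with 1 base between the copies was in 0 of 37 members and 0.0481% of genes. Those letters are not in these windows, which says nothing of binding elsewhere.

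The next enzymes of ketone use had values nearer to 0, a contrast with Bdh1 that was not tested. Oxct1, which transfers coenzyme A to acetoacetate and commits it to oxidation, was at 736, 743 and 674 CPM on vehicle and at 745, 691 and 422 CPM on setanaxib. Setanaxib replicate 3 was far below the vehicle range, replicate 1 just above it and replicate 2 within it. Its log2 fold change was -0.21 (SE 0.22, edgeR adjusted p = 0.857) and 0.01 (SE 0.08) without that library.

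Acat1, the thiolase that splits acetoacetyl-CoA into acetyl-CoA, was at 211, 237 and 216 CPM on vehicle and 243, 262 and 182 CPM on setanaxib. The libraries overlapped, with a log2 fold change of 0.05 (SE 0.15, adjusted p = 0.968 in edgeR) and 0.19 without setanaxib replicate 3. Ketone genes together summed to 1091, 1118 and 1034 CPM on vehicle and to 1064, 1041 and 619 CPM on setanaxib.

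Of the 5 other ketone genes listed, 3 were higher and 2 lower, and none passed edgeR. Acss1, which activates acetate in mitochondria, was at 188, 202 and 190 CPM on vehicle and 235, 271 and 178 CPM on setanaxib, a log2 fold change of 0.24 (SE 0.16) and 0.39 (SE 0.08) without setanaxib replicate 3.

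**Figure D4:**
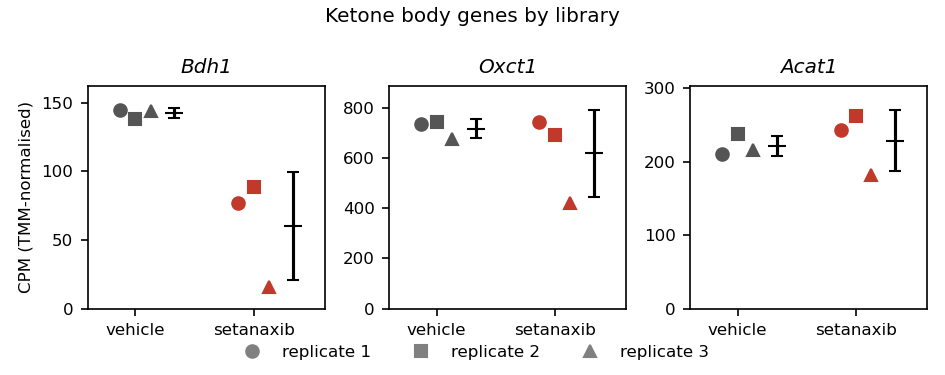
CPM of Bdh1, Oxct1 and Acat1 in each library (symbols, by replicate), with the mean and SD of each group (bars, n = 3). Bdh1 lies at 15.7 to 88.5 CPM on setanaxib and 138 to 145 CPM on vehicle, while for Oxct1 and Acat1 the groups overlap.

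Beta-oxidation genes had the highest median of the 4 pathways. Of 14 genes, 13 were higher and 1 lower (Acads), with a median log2 fold change of 0.12 and 0.25 without setanaxib replicate 3. Their edgeR adjusted p ran from 0.641 to 0.997, so none passed. Summed, they reached 4476, 5277 and 4231 CPM on vehicle and 5461, 5766 and 3992 CPM on setanaxib. Setanaxib replicates 1 and 2 were above and replicate 3 below the vehicle range.

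The carnitine shuttle had the values nearest to 0. Cpt1b, the muscle carnitine palmitoyltransferase of the outer membrane and the controlled entry step, had a log2 fold change of 0.01 (SE 0.15), and Cpt2, its partner in the inner membrane, 0.02 (SE 0.19). Without setanaxib replicate 3 these were 0.14 and 0.19. Among the acyl-CoA dehydrogenases, which take up fatty acids of successively shorter chains, Acadvl, for very long chains, was at 225, 246 and 218 CPM on vehicle and 283, 304 and 196 CPM on setanaxib. That gave 0.19 (SE 0.18, edgeR adjusted p = 0.841) and 0.36 (SE 0.08, adjusted p = 0.207) without setanaxib replicate 3. The other members of this step were Acadl at 0.05, Acadm at 0.05 and the short-chain Acads at -0.11, or 0.20, 0.21 and 0.06 without that library.

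With all 6 libraries, the largest value of the pathway was at a later step. Acaa2, the mitochondrial thiolase that releases acetyl-CoA at the end of each round, was at 325, 390 and 310 CPM on vehicle and 441, 457 and 361 CPM on setanaxib. Only vehicle replicate 2 overlapped the setanaxib range, and the log2 fold change was 0.30 (SE 0.14, interval -0.04 to 0.63, edgeR adjusted p = 0.641), or 0.40 (SE 0.11) without setanaxib replicate 3. The trifunctional protein subunits Hadha and Hadhb, which carry out the middle and last steps on long chains, had values of 0.13 (SE 0.18) and 0.03 (SE 0.21), and Hadh, for shorter chains, 0.12 (SE 0.13). In the fit of 5 libraries they were at 0.28, 0.21 and 0.21.

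The 4 enzymes that prepare unsaturated chains were all higher, at 0.14 to 0.28 and, without setanaxib replicate 3, 0.28 to 0.43, and their summed level in setanaxib replicate 3 was 92.5% of the vehicle mean. Ech1, a dienoyl-CoA isomerase, was at 608, 736 and 536 CPM on vehicle and 824, 863 and 595 CPM on setanaxib. Its log2 fold change of 0.28 (SE 0.19, adjusted p = 0.753 in edgeR) was 0.43 (SE 0.14, adjusted p = 0.314) without setanaxib replicate 3. Eci2, an enoyl-CoA isomerase, was at 71.5, 80.6 and 67.7 CPM on vehicle and 96.6, 92.4 and 66.2 CPM on setanaxib, or 0.22 (SE 0.16, adjusted p = 0.789) and 0.37 (SE 0.10) without that library. In both genes setanaxib replicates 1 and 2 exceeded all vehicle libraries and replicate 3 did not.

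The 29 other genes of fatty acid oxidation divided into 23 higher and 6 lower, with none past edgeR's adjusted or unadjusted threshold. Slc25a20, the carnitine carrier between both transferases, was at 72.8, 80.2 and 71.3 CPM on vehicle and 79.0, 91.5 and 56.6 CPM on setanaxib. These overlap (0.02, SE 0.18; 0.19 without setanaxib replicate 3), and the sign turned in limma-voom. Ehhadh, the peroxisomal bifunctional enzyme, was at 8.79, 8.78 and 7.89 CPM on vehicle and 9.96, 22.9 and 10.2 CPM on setanaxib. Its groups did not overlap, and replicate 2 was by far the highest (0.76, SE 0.34, edgeR adjusted p = 0.624; 0.25 without setanaxib replicate 2 and 0.95 without replicate 3). Cpt1a, the liver-type transferase, was at 44.7, 44.4 and 50.3 CPM on vehicle and 44.3, 74.1 and 72.2 CPM on setanaxib, a log2 fold change of 0.45 (SE 0.20, adjusted p = 0.629) and 0.35 without setanaxib replicate 3.

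Pyruvate oxidation and the TCA cycle were even. Of 15 genes, 8 were higher and 7 lower with a median log2 fold change of 0.00, and all lay between -0.06 and 0.12 (edgeR adjusted p from 0.805 to 0.999). All 15 were higher without setanaxib replicate 3, at 0.08 to 0.21 with a median of 0.16. Their sum was 6385, 6904 and 6090 CPM on vehicle and 7232, 7004 and 5426 CPM on setanaxib. Setanaxib replicate 3 was the lowest library for 14 of the 15, and divided by the cardiomyocyte markers it was the highest of the 6 libraries, at 11.8% against 9.95% to 11.5%.

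Within the pyruvate dehydrogenase complex, Pdha1, which carries the phosphorylation sites that switch the complex off, had a value of 0.06 (SE 0.14). Its partners were at -0.06 for Pdhb, -0.06 for Dlat and -0.01 for Dld, the dehydrogenase that the complex shares with other keto acid dehydrogenases. Without setanaxib replicate 3 the 4 were at 0.10 to 0.20. Cs, citrate synthase and the entry to the cycle, was at 1066, 1125 and 1037 CPM on vehicle and 1191, 1211 and 1026 CPM on setanaxib. It differed by 0.09 (SE 0.11, edgeR adjusted p = 0.886), or 0.16 (SE 0.07) without setanaxib replicate 3, with replicates 1 and 2 above the vehicle range and replicate 3 below it.

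Isocitrate dehydrogenase subunits, which catalyse a controlled step of the cycle, had values of -0.01 for Idh3a, 0.02 for Idh3b and 0.12 for Idh3g, or 0.11, 0.16 and 0.19 without setanaxib replicate 3. Idh3g had the smallest p of the pathway: it was at 357, 374 and 334 CPM on vehicle and 411, 396 and 353 CPM on setanaxib (SE 0.10, edgeR adjusted p = 0.805). From 2-oxoglutarate to succinate, Ogdh, Dlst, Suclg1, Suclg2 and Sucla2 lay between -0.06 and 0.05, or 0.08 and 0.19 without it. Of the last steps, Fh1, fumarase, was at 155, 173 and 155 CPM on vehicle and 192, 179 and 138 CPM on setanaxib, or 0.08 (SE 0.14) and 0.21 (SE 0.08) without replicate 3. Mdh2, the mitochondrial malate dehydrogenase, was at 575, 604 and 585 CPM on vehicle and 660, 664 and 516 CPM on setanaxib, or 0.06 (SE 0.12) and 0.17 (SE 0.06) without replicate 3. These 2 genes had the same layout, with setanaxib replicates 1 and 2 above and replicate 3 below every vehicle library.

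Of the 7 kinases and phosphatases that control the complex, Pdk4 and Pdp2 stood out, while Pdk1 (-0.07), Pdk2 (0.07), Pdp1 (0.03) and Pdpr (0.02) were near 0 and Pdk3 was at 0.29 with an SE of 0.52. Without setanaxib replicate 3 these 5 were at 0.12, 0.17, -0.05, 0.13 and -0.55. Among 24 other genes of pyruvate and the TCA cycle, 18 were higher and 6 lower, none passed edgeR's adjusted test, and 2 had an unadjusted p under 0.05: Pdk4 and Pdp2. Pdk4, a kinase that shuts off pyruvate dehydrogenase when fat is burned, was at 143, 258 and 210 CPM on vehicle and 929, 1262 and 209 CPM on setanaxib. Replicates 1 and 2 were far above the vehicle libraries and replicate 3 was within their range.

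The log2 fold change of Pdk4 was 1.97 (SE 0.63, edgeR adjusted p = 0.490) and 2.43 (SE 0.27, adjusted p = 0.117) without setanaxib replicate 3. DESeq2 called it at an adjusted p = 0.0180, with a range over the alternatives of 0.0180 to 0.994. Relative to the cardiomyocyte markers, Pdk4 in setanaxib replicate 3 was at 0.454%, above the 0.246%, 0.424% and 0.344% with vehicle and below the 1.48% and 1.90% in the other setanaxib libraries. Pdp2, the phosphatase that reverses the kinases, was at 24.6, 21.9 and 26.7 CPM on vehicle and 30.7, 41.6 and 30.6 CPM on setanaxib. Its groups did not overlap (0.49, SE 0.15, edgeR adjusted p = 0.488; 0.57 without setanaxib replicate 3).

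**Figure D5:**
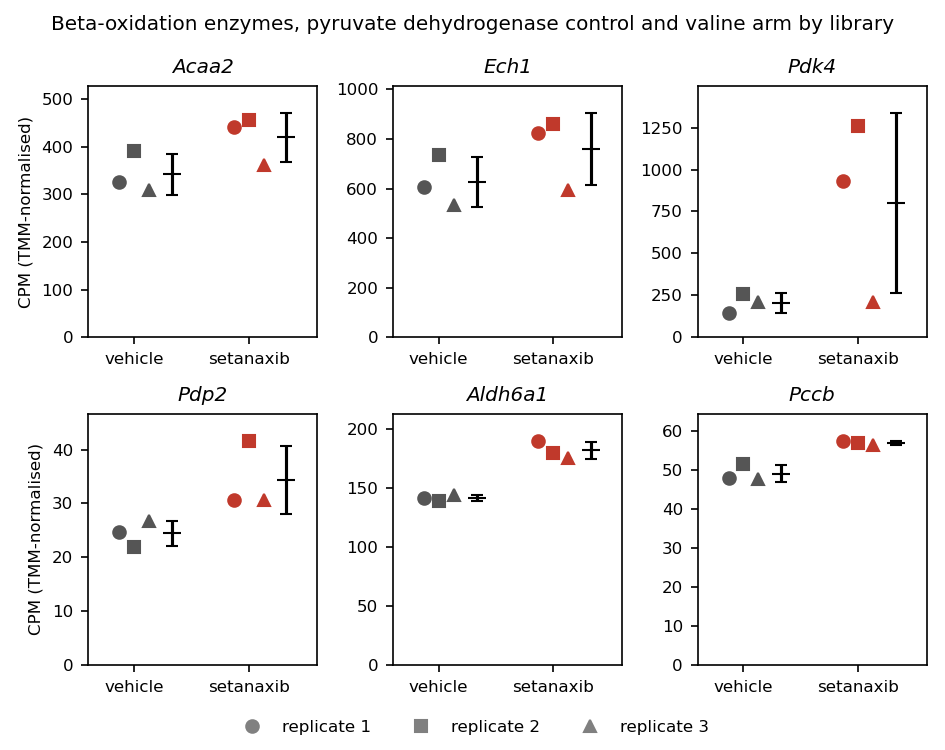
CPM of Acaa2, Ech1, Pdk4, Pdp2, Aldh6a1 and Pccb in each library (symbols, by replicate), with the mean and SD of each group (bars, n = 3). Pdk4 is at 929 and 1262 CPM in setanaxib replicates 1 and 2 and at 209 CPM in replicate 3, and for Pdp2, Aldh6a1 and Pccb all 3 setanaxib libraries are above vehicle.

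Branched-chain amino acid breakdown held 6 higher and 5 lower genes of 11, with a median log2 fold change of 0.01 and 0.10 without setanaxib replicate 3 (edgeR adjusted p from 0.705 to 0.993). The sum was 762, 782 and 748 CPM on vehicle and 812, 820 and 678 CPM on setanaxib. Bcat2, the mitochondrial transaminase of the first step, went against the shared pattern: it was at 68.7 and 66.1 CPM in setanaxib replicates 1 and 2, at 77.0 CPM in replicate 3 and at 71.3 to 73.3 CPM on vehicle. Its log2 fold change was -0.04 (SE 0.09) and -0.10 without setanaxib replicate 3.

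For the branched-chain keto acid dehydrogenase, the committed step, Bckdha was at -0.02 (SE 0.12), Bckdhb at -0.02 (SE 0.17) and Dbt at 0.13 (SE 0.14). Without setanaxib replicate 3 they were at 0.09, 0.00 and 0.22. Dbt, the acyltransferase core, was at 34.1, 32.8 and 27.5 CPM on vehicle and 33.1, 40.1 and 30.3 CPM on setanaxib, which overlap. Bckdha is uncertain: 61.7% of its exon bases lie opposite those of B3gnt8, whose count was 61.1% of that of Bckdha.

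In the leucine arm, all 4 genes were higher, at 0.02 to 0.13 and, without setanaxib replicate 3, 0.12 to 0.15. Mccc1, the biotin-carrying subunit of methylcrotonyl-CoA carboxylase, was at 59.6, 57.7 and 60.1 CPM on vehicle and 62.4, 68.6 and 63.6 CPM on setanaxib. Its groups did not overlap, but the difference was small (0.13, SE 0.08, edgeR adjusted p = 0.705). The partner subunit Mccc2 was at 24.8, 22.1 and 22.8 CPM on vehicle and 24.4, 26.3 and 21.8 CPM on setanaxib, which overlap (0.06, SE 0.11; 0.13 without setanaxib replicate 3). In the valine arm, Hibch, which frees 3-hydroxyisobutyrate from coenzyme A, was at 32.0, 32.9 and 31.2 CPM on vehicle and 32.6, 32.5 and 23.4 CPM on setanaxib. Replicate 3 alone lay below the vehicle range, and the value of -0.12 (SE 0.14) was 0.03 without it.

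The smallest p of all the listed genes was in this pathway, among the genes outside the 43. Of 10, 9 were tested (Bcat1 was not), 7 were higher and 2 lower, and 3 had an unadjusted p under 0.05: Aldh6a1, Pccb and Slc25a44. Aldh6a1, the methylmalonate semialdehyde dehydrogenase that ends the valine arm, was at 142, 139 and 144 CPM on vehicle and 190, 180 and 176 CPM on setanaxib. Its log2 fold change was 0.36 (SE 0.08, interval 0.17 to 0.55, edgeR adjusted p = 0.356). DESeq2 called it at an adjusted p = 0.000106, with a range over the alternatives of 0.000106 to 0.937.

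Aldh6a1 overlaps Bbof1 on the opposite strand. Setanaxib replicate 3 did not stand apart for it, and the value without it was 0.39 (SE 0.06). Pccb, a propionyl-CoA carboxylase subunit, was at 47.9, 51.6 and 47.8 CPM on vehicle and 57.6, 57.0 and 56.6 CPM on setanaxib (0.22, SE 0.08, edgeR adjusted p = 0.527; 0.23 without setanaxib replicate 3). Slc25a44, the mitochondrial carrier that imports branched-chain amino acids, was likewise higher in all 3 setanaxib libraries (0.26, SE 0.09, edgeR adjusted p = 0.532, and 0.26 without that library). Bckdk, the kinase that inhibits the keto acid dehydrogenase, was at 65.3, 63.7 and 60.5 CPM on vehicle and 65.9, 69.5 and 63.9 CPM on setanaxib, which overlap (0.07, SE 0.08; 0.10 without that library).

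Over all 68 other genes of the 4 pathways, 67 were tested. Of these, 51 were higher and 16 lower, 0 passed edgeR's adjusted test and 6 had an unadjusted p under 0.05, beside the 8.46% of all genes. Pdk4 and Aldh6a1 were among those that DESeq2 called. Groups did not overlap for 7 higher and 1 lower, beside the 8.11% and 9.46% of all genes.

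3 ratios within complexes were compared over libraries with a two-sided exact permutation test, which with 3 against 3 cannot go below p = 0.1. The log2 ratio of Suclg2 to Sucla2, the GTP-forming and ATP-forming subunits of succinyl-CoA synthetase, was -0.94 in both groups (SD 0.06 and 0.10, n = 3, exact p = 1, adjusted over the 3 ratios 1). That of Pdk4 to its substrate Pdha1 was -1.80, -1.05 and -1.21 with vehicle and 0.68, 1.14 and -1.03 with setanaxib, a difference of 1.62 (exact p = 0.1, adjusted 0.3), or 2.26 without setanaxib replicate 3. All 3 setanaxib values lay above vehicle, replicate 3 only just. That of Bckdk to Bckdha differed by 0.10 (exact p = 0.5, adjusted 0.75), or 0.02 without it. This ratio is uncertain because of the overlap of Bckdha with B3gnt8 described above.

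Per kilobase of annotated exon, the members spanned a wide range of vehicle levels. Ogdh was highest at 381 CPM per kb, followed by Ech1 at 274, Acaa2 at 226, Oxct1 at 194, Acadl at 191 and Cs at 186. Auh, an enzyme of leucine breakdown, was lowest at 2.66, and Bdh1 was at 36.6. Exon lengths are those of all annotated transcripts joined, so these levels are approximate.

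The members' shared pattern was described by the mean of their centred log2 CPM, which was -0.02, 0.11 and -0.08 with vehicle and 0.15, 0.15 and -0.31 with setanaxib. Across the 6 libraries, 32 of 43 members correlated with this mean, which they help to make, at r over 0.8 (median 0.928). Bcat2 ran opposite (r = -0.79) and Mccc1 was unrelated (r = 0.06). Among 5972 genes outside the pathway lists whose average log2 CPM was 4 or more, the closest over the 6 libraries were Usp9x (r = 0.998), Cox6b1 (0.996), Nfs1 (0.996), Vdac2 (0.996) and Fabp3-ps1 (0.995). The 6 points share their library scaling, and these values carry no test.

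Copies and overlaps touch other members too. Hadhb has a copy, Gm13910, that matches it at 99.8% over 1428 bases and held 4.52% of its count. Acadvl overlaps Dvl2 on the opposite strand (6.49% of its count) and Idh3b overlaps Nop56 by 5 bases. Cpt1b shares exons with the readthrough gene Gm44502 on the same strand. The sources used here do not say how the authors' counting divided such reads, so small differences in these genes are uncertain.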

How the data were processed

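RNA was measured in 6 heart libraries, 3 vehicle and 3 setanaxib. Total RNA was taken up in TRIzol, and 1 µg per library was sequenced as paired reads of 150 bases, per the labels' protocols. The authors deposited estimated counts for each gene; these are whole numbers, unscaled, so no rounding was needed. The design had assumed raw counts; the same count tests were kept. The build GRCm39 and the tools STAR 2.5.4b, featureCounts 2.0.1, FastQC 0.11.9 and DESeq2 1.42.0 are named, with no roles, per the submitters' processing notes. Row and column names look like StringTie output, per the file headers. RNA selection and strand are not given in the sources used here.

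Genes were kept with edgeR's filterByExpr (minimum count 10), scaled by TMM and tested with edgeR 4.0.16 (R 4.3.3, quasi-likelihood F test, two-sided, Benjamini-Hochberg over all tested genes, threshold 0.05). SEs and 95% intervals were derived from that F statistic. Replicate numbers follow record order and do not pair libraries. Alternatives were other scalings and filters, DESeq2 1.42.0, limma-voom (limma 3.58.1), rows of one symbol summed, and leaving out each library; the scaling to cardiomyocyte markers was added after seeing the data. The fitting was checked on data with known differences.

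The members and lists were chosen with earlier results of these data known. Library values are printed for members whose groups do not overlap and for the up to 4 members of smallest edgeR p in each pathway, and, of the other genes, for Pdk4, Bckdk and Slc25a20 and the 2 of smallest p per pathway; a gene the rule names is not reported here. Values of Bcat2 and Slc25a44 were added after they were seen. Overlaps, copies (at least 95% identity over 200 bases), exon lengths and promoters come from GENCODE and RefSeq on GRCm38.p6, which is not the authors' build.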

Additional observations from a re-analysis of the deposited data

How the results depend on the processing

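No paired analysis was possible because the replicate numbers only follow record order and tie no vehicle library to a setanaxib library. No member was called under any of the alternatives that have a test. Leaving out 1 library at a time gave 15 to 41 members higher (15 without setanaxib replicate 1, 17 without replicate 2 and 41 without replicate 3). The groups then did not overlap for 2 to 24 members, beside 4884 to 7055 of the 20880 to 21068 genes tested. With total counts and no scaling factors that number was 9, beside 1381 genes apart upward and 1616 downward of 20472. There Fh1, Eci2, Acaa2, Hadh, Suclg1, Ech1 and Idh3g were apart upward, Oxct1 and Bdh1 downward and Mccc1 overlapped. Scaled to cardiomyocyte markers, the number was 6, with no count over all genes on that scale to set beside it. The cause of these shifts was not tested.

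Medians with 1 library left out ran from -0.03 to 0.16 over all members, 0.04 to 0.25 for beta-oxidation, -0.10 to 0.16 for pyruvate and TCA, -0.030 to 0.10 for branched-chain genes and -0.37 to 0.0051 for ketones; limma-voom gave -0.02 for pyruvate and TCA. Bdh1 stayed negative in each fit, from -1.62 to -0.78. Among the genes picked by the printing rule, log2 fold changes near 0 turned sign with 1 library left out: Fh1 -0.026 to 0.21, Mdh2 -0.0019 to 0.17, Hibch -0.20 to 0.026, Mccc2 -0.0097 to 0.13, Oxct1 -0.37 to 0.0051, Acat1 -0.062 to 0.19 and Slc25a20 -0.14 to 0.19, the last also at -0.0080 in limma-voom. Many of the other members turned sign too, such as Cpt1b (-0.13 to 0.14), Acads (-0.21 to 0.059), Pdhb (-0.23 to 0.12) and Ogdh (-0.11 to 0.12). The direction of most members thus depended on single libraries. The log2 ratio of Suclg2 to Sucla2 differed by -0.055 to 0.029. DESeq2 alone called Pdk4 and Aldh6a1, among the genes named here. Of the single-gene values under the alternatives, 335 kept their direction and side of the threshold, 13 turned sign and 3 passed it newly. These values cover the genes picked by the printing rule, not every member. Of the summary values, 128 moved by less than the limits used, 7 moved by more and 2 turned sign. For medians the limit was the pooled SD between libraries, which takes in setanaxib replicate 3. For counts it was a fixed ratio, so wide that a shift from 28 to 41 members higher counted as unmoved. The 128 therefore says little about how stable the results are.

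With 3 libraries a group, only differences well beyond the spread between libraries can pass a test over 20472 genes. Depth did not limit the members, the lowest of which was at 14.0 CPM or more.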
